A study of Homo sapiens with 4 samples.

Results

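Interferon-stimulated genes outside the HLA locus were examined in MIA PaCa-2 cells, an established human pancreatic carcinoma line, that overexpressed ING3. The list named 40 genes, and a gene was represented by the brightest of its probe sets (groups of short probes on the array that read the same transcript) that the platform annotation assigned to 1 symbol. By this rule 39 members were measured among 19775 genes in all. STAT2 was not analysed here. The members are known interferon targets, and the list was drawn up with earlier results of these data known.

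The tested cells had been transduced with a lentiviral construct for FLAG-tagged full-length ING3 under the CMV/TO promoter of the vector, and the control cells with a lentiviral GFP construct; both were stably selected and grown in serum-containing medium, and no interferon treatment was named. Gene expression was measured on 4 Affymetrix arrays, 2 (a and b) of ING3 cells and 2 (a and b) of control cells. The submitters call the arrays of a group technical duplicates, so p-values below set a difference between 2 cell populations against the spread between duplicates. The labels speak of selected clones and do not say how many, and both groups carry a lentivirus, so cells without one were not part of the comparison.

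Interferons are secreted when cells sense foreign nucleic acid. Type I interferons bind the IFNAR1 and IFNAR2 receptor chains, the kinases JAK1 and TYK2 are activated, and the complex ISGF3, which contains IRF9, binds the interferon-stimulated response element (ISRE) in target promoters. Type II interferon acts at the GAS element. The targets degrade or sequester viral RNA, block viral entry or conjugate the ubiquitin-like protein ISG15 to other proteins, and many tumour lines express some of them without added interferon.

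Promoters of 4 members are shown, chosen with the array results known. HERC5 and IFITM1 passed the test. HERC6 is the neighbour of HERC5 on chromosome 4 with no protein-coding gene between them, and the 3 probe sets of GBP1 past the filter were all lower in ING3 cells. HERC6 and GBP1 did not pass the test. Each window runs from 250 bases before to 50 bases after a transcription start (RefSeq, GRCh38.p14), 5′ to 3′ on the gene's strand. Capitals mark the ISRE core GAAANNGAAA, searched on both strands, so a match on the opposite strand shows as its complement read backwards, and overlapping matches merge.
HERC5 (chr4:88456869-88457168, plus strand): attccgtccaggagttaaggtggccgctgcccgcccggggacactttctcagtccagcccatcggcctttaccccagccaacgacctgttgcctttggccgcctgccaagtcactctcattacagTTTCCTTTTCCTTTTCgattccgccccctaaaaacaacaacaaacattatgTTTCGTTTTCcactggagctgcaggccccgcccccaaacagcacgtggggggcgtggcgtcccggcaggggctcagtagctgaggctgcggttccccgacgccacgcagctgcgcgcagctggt
HERC6 (chr4:88378602-88378901, plus strand): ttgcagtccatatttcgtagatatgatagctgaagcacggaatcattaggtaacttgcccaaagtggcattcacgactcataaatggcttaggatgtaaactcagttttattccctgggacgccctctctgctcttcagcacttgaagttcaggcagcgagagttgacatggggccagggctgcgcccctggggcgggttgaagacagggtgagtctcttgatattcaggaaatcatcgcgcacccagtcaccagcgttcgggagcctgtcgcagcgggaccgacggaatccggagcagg
IFITM1 (chr11:313790-314089, plus strand): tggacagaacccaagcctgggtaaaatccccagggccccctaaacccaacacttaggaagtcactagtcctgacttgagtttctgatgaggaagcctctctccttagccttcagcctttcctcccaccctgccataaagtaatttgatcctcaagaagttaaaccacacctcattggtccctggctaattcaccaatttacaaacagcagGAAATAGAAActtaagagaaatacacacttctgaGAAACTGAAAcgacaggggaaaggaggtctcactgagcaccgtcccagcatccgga
GBP1 (chr1:89065159-89065458, minus strand): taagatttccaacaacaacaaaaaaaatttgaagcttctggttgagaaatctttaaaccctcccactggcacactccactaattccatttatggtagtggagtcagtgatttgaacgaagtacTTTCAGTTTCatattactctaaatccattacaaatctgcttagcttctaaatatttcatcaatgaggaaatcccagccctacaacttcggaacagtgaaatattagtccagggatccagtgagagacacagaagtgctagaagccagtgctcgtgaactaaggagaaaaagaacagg

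The HERC5 window held 3 ISRE cores, 2 of them overlapping, that of IFITM1 held 2, that of GBP1 held 1 and that of HERC6 held 0. RefSeq promoter windows were matched for 33 of the 40 members, with up to 3 starts each. At least 1 window held the core in 23 of these 33 members (69.7%), against 1195 of 27305 genes in all (4.38%). The GAS core TTCNNNGAA, which reads the same on both strands, was in 11 of the 33 members (33.3%), against 9.38% of all genes. A match describes the letters of the window and is not a measured binding site.

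**Figure D1:**
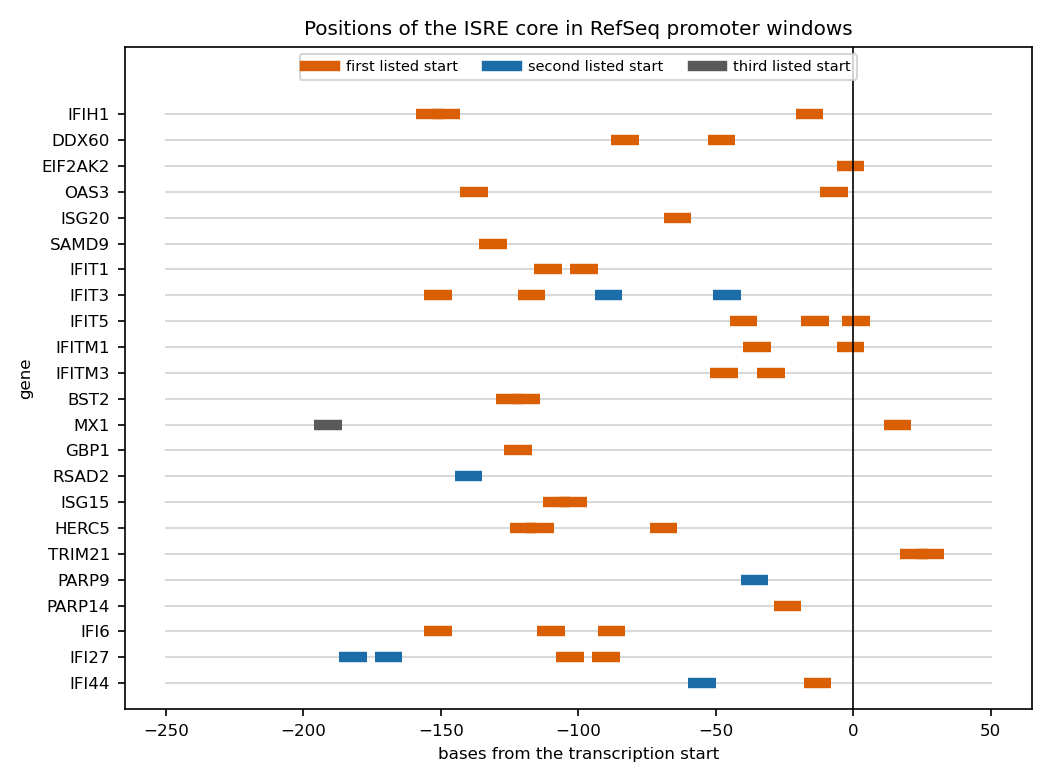
Positions of the ISRE core (bars, 10 bases each) in the promoter windows of the 23 members that hold it, on an axis of bases from the transcription start; colours mark different listed starts of a gene. HERC5, IFI6, IFIH1 and IFIT5 each carry 3 matches in their first listed window.

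On the arrays themselves, the ING3 transcript had signals of 521 and 541 in ING3 cells, against 338 and 373 in control cells, on its brightest probe set (adjusted p = 0.071 by limma); 2 other probe sets had means of 241 and 171 in ING3 cells, against 274 and 170 in control cells. ACTB, whose 3′ signal over its 5′ signal tracks RNA integrity, gave a ratio of 2.05 and 2.03 on the ING3 arrays, against 2.58 and 1.80 on control arrays a and b. GAPDH, a second such control, gave 0.903 and 0.923 on the ING3 arrays, against 0.934 and 0.905 on control arrays a and b. The part of RNA integrity in the differences below was not tested. Of the markers of the labelled carcinoma line, KRT8, KRT18, KRT19 and VIM had signals between 3704 and 30058, and 2 of them rose in ING3 cells by limma, KRT19 (log2 difference 0.52, adjusted p = 0.0078) and KRT8 (0.32, adjusted p = 0.033), while EPCAM and CDH1, 2 epithelial surface proteins, stayed at 37.9 or less on every array. The leukocyte marker PTPRC stayed at 15.97 or less, but 2 other leukocyte markers, CD3E and ITGAM, were bright enough to enter the test below. CD3E had 87.1 and 42.5 in ING3 cells, against 129 and 38.8 in control cells. ITGAM had 116 and 97.1, against 91.1 and 72.3. Over all 5 measured leukocyte markers the summed signal was 269 and 238 in ING3 cells, against 293 and 139 in control cells.

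Genes entered the test when their mean log2(signal + 1) was no lower than the probe-set median of the arrays (near a signal of 64.6). Of the 39 measured members 34 reached it. The 5 under it were IRF7, the inducible master factor of type I interferon genes, IFI44, IFI27, RSAD2 (viperin, an antiviral radical enzyme) and XAF1, a pro-apoptotic protein. IFI27 had signals of 18.8 and 31.3 in ING3 cells, against 48.1 and 39.0 in control cells. RSAD2 had 35.3 and 32.6 in ING3 cells, against 41.1 and 47.5 in control cells. On these probe sets both genes lay lower on both ING3 arrays, at signals that genes of other tissues also gave. Another RSAD2 probe set had 59.5 and 16.1 in ING3 cells, against 40.5 and 14.1 in control cells, and overlapped. IRF7 had 13.9 and 47.1 in ING3 cells, against 14.7 and 6.46 in control cells, and IFI44 had 28.3 and 14.7, against 19.5 and 29.1. XAF1 had 55.7 and 40.6 in ING3 cells, against 71.3 and 37.1 in control cells. The groups overlapped for IRF7, IFI44 and XAF1, and none of the 5 was tested.

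Reaching the filter does not by itself show expression. Among 18 measured markers of leukocytes, endothelium, fibroblasts and other tissues, 8 reached it too. HBB (haemoglobin) had 75.5 and 58.6 in ING3 cells, against 116 and 80.2 in control cells. COL1A2, a collagen chain of fibroblasts, had 3749 and 3996 in ING3 cells, against 4648 and 4548 in control cells. COL1A1, its partner chain, had 234 and 181, against 274 and 288, and CDH5, an endothelial cadherin, had 328 and 257, against 303 and 288. Markers of other cell types thus spanned signals at which many members lie, and the filter does not separate the members from them. The members nearest above the filter, OAS2, SAMD9, MX1 and TRIM22, had signals between 51.4 and 115. The other 30 tested members had a signal of at least 139.7 on every array, and 28 had a mean of 200 or more. Signals of different probe sets depend on the probes and are not set against each other as transcript levels.

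**Figure D2:**
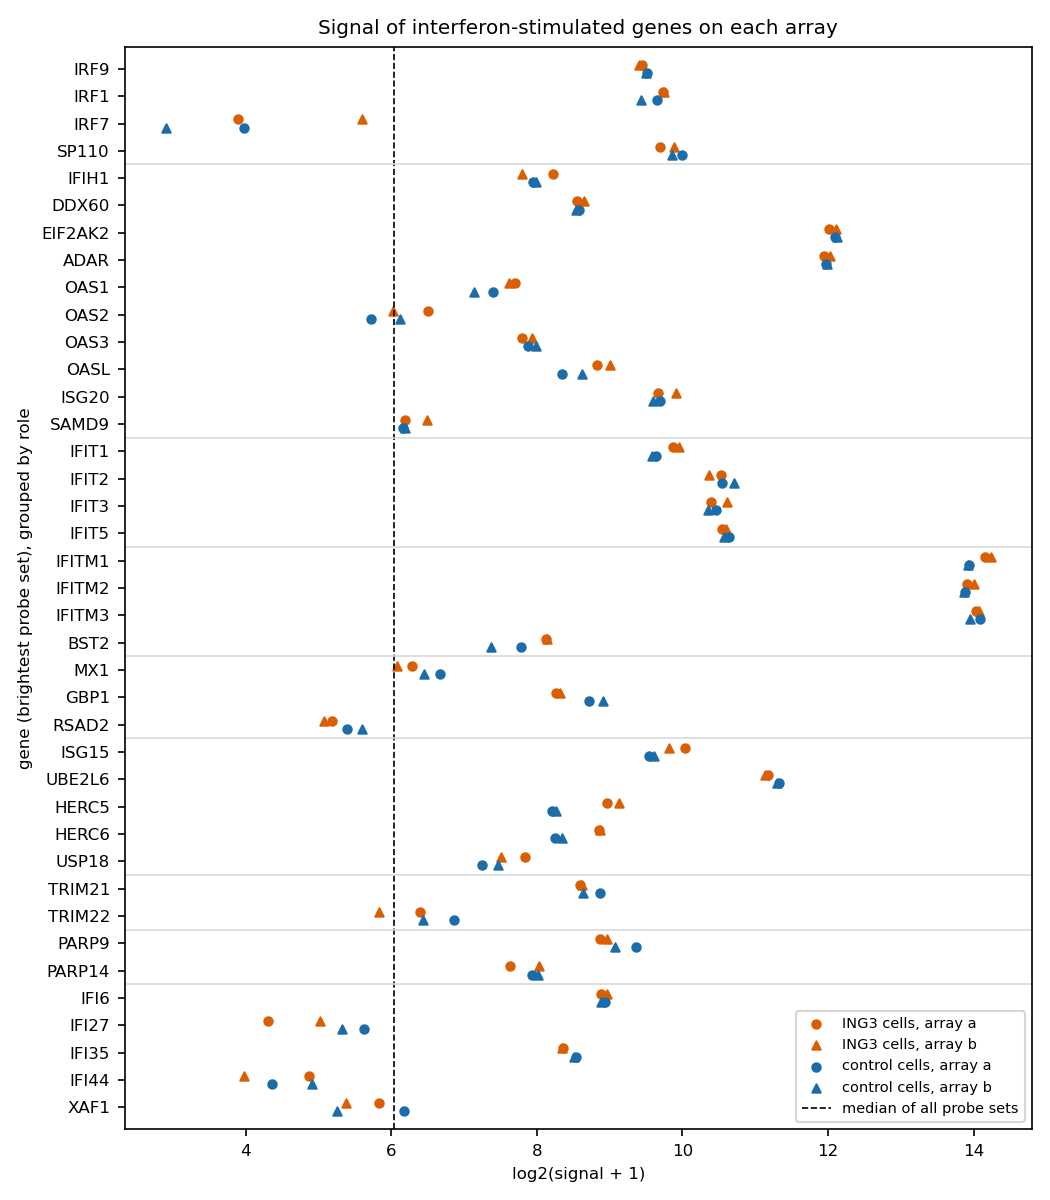
Signal of the 39 measured members on each array, as log2(signal + 1), for ING3 cells (orange) and control cells (blue), with circles for array a and triangles for array b; thin lines separate the roles given in the text and the dashed line is the median of all probe sets. IRF7, RSAD2, IFI27, IFI44 and XAF1 have means left of it, and the IFITM genes lie furthest right.

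In ING3 cells 2 of the 34 tested members rose, HERC5 and IFITM1, 0 fell and 32 did not pass limma's test (Benjamini-Hochberg adjusted p under 0.05 over 12190 genes). Among all tested genes 1.03% rose and 0.476% fell, 1.5% in all. At an unadjusted p under 0.05, 7 members were higher and 2 were lower (26.5% of the members, against 17.7% of all genes). The median log2 difference of the members was 0.036, against -0.0074 over all tested genes, and the mean was higher in ING3 cells for 20 members and lower for 14. Without ING3 array b the members' median was -0.0067. Their median absolute log2 difference was 0.17, against 0.13 for all genes.

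Both ING3 arrays lay above both control arrays for 12 members and below them for 9. Over all tested genes these shares were 24.3% above and 24.9% below, so that the groups did not overlap for 61.8% of the members and 49.2% of all genes. The log2 differences of the members reached from -0.53 (TRIM22) to 0.82 (HERC5), and 5 of the 34 members (14.7%) differed by 0.5 or more in either direction, against 6.83% of all tested genes. TRIM22 was at -0.25 without ING3 array b and -0.32 without control array a, and GBP1 was then lower than it. In bulk RNA a change in the share of cells that hold a transcript and a change in its amount per cell cannot be told apart.

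**Figure D3:**
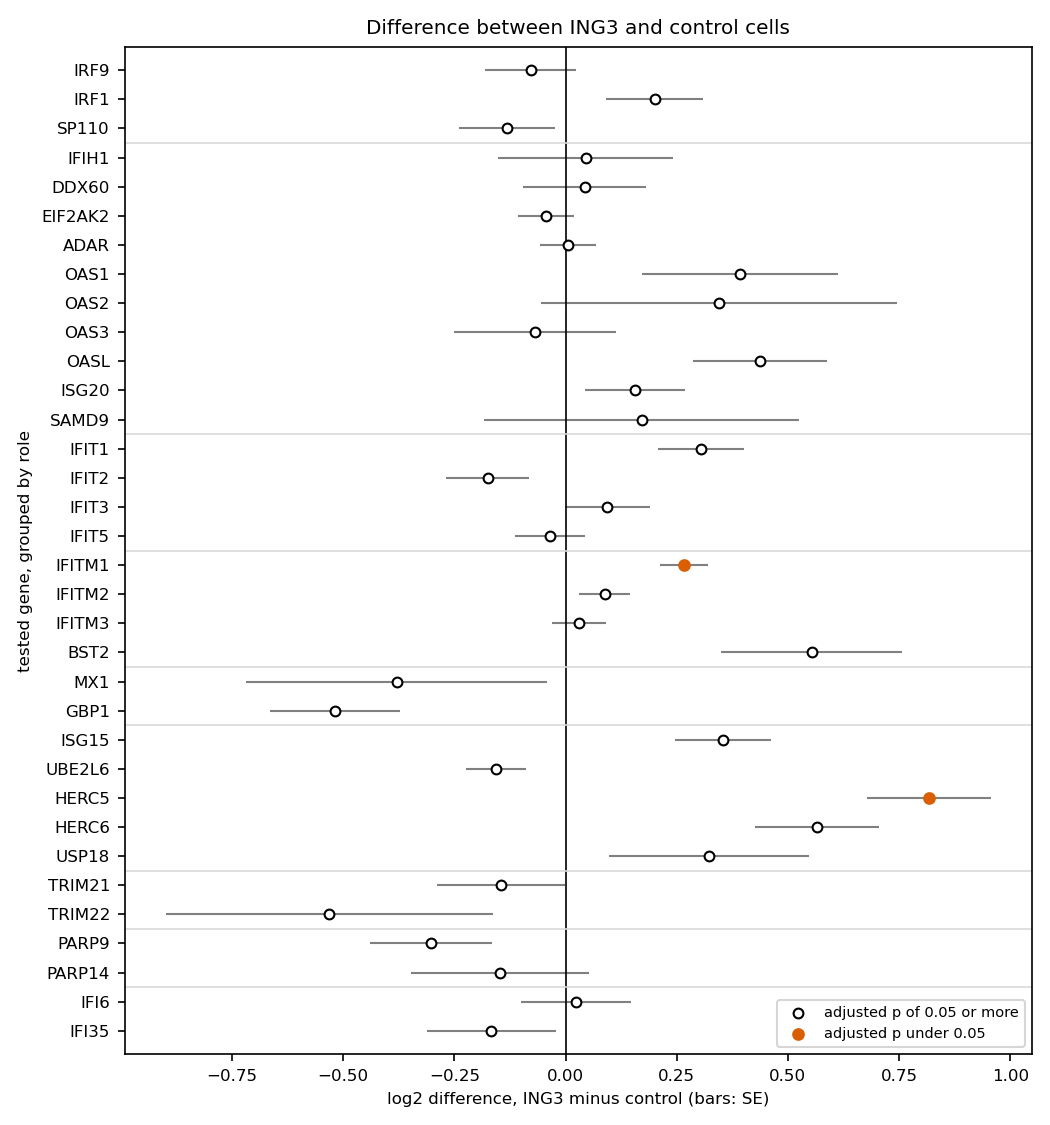
Log2 difference, ING3 minus control, of the 34 tested members with the moderated standard error as bars; filled points passed the test and thin lines separate the roles. HERC5 at 0.82 and IFITM1 at 0.27 are the filled points, while GBP1 at -0.52 and TRIM22 at -0.53 lie furthest left.

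The genes of ISG15 conjugation held the largest difference. HERC5, the main ligase that attaches ISG15 to newly made proteins in human cells, had signals of 500.3 and 558 in ING3 cells, against 294 and 306 in control cells. Both ING3 arrays stood clear of both control arrays. HERC5 rose 1.76-fold (log2 difference 0.82, SE 0.14, adjusted p = 0.028 by limma). The adjusted p was 0.096 without ING3 array b, 0.22 without control array a and 0.19 without control array b. It was 0.063 with every probe set as a feature of the fit, 0.071 with no filter on dim genes and 0.24 without an intensity trend, with the log2 difference between 0.74 and 0.90 in every alternative run.

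HERC6, a relative of HERC5 that lies beside it, had 462 and 464 in ING3 cells, against 302 and 324 in control cells. The groups did not overlap, and the ratio was 1.48-fold, but HERC6 did not pass (log2 difference 0.57, SE 0.14, adjusted p = 0.082 by limma, and 0.057 to 0.33 over the alternatives). ISG15 itself had 1052 and 903 in ING3 cells, against 745 and 780.4 in control cells (log2 difference 0.35, SE 0.11, adjusted p = 0.14). Its values were higher on both ING3 arrays, which differed from each other by more than the control arrays did. USP18, the protease that removes ISG15 and also damps receptor signalling, had 228 and 181 in ING3 cells, against 151 and 175 in control cells, a gap of a few units between the nearest arrays (log2 difference 0.32, SE 0.22). UBE2L6, the E2 enzyme that hands ISG15 to HERC5, went the other way, with 2306 and 2256 in ING3 cells, against 2561 and 2520 in control cells (log2 difference -0.16, SE 0.067, adjusted p = 0.27). Of the 5 genes, with HERC6 counted as a relative of HERC5, 4 had a higher mean in ING3 cells. An unadjusted p under 0.05 by limma was reached by HERC5, HERC6 and ISG15, which were higher, and by UBE2L6, which was lower. Among all tested genes 17.7% reached it.

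Among the membrane proteins that restrict viral entry or release, 1 of 4 rose and 0 fell, and all 4 had a higher mean in ING3 cells. IFITM1, which blocks fusion of viruses at the cell surface, had signals of 18331 and 19302 in ING3 cells, against 15650 and 15608 in control cells. The control arrays were close together and both ING3 arrays lay above them. IFITM1 rose 1.20-fold (log2 difference 0.27, SE 0.054, adjusted p = 0.049 by limma). The call was lost without ING3 array b (adjusted p = 0.072), without control array a (0.35), without control array b (0.34), after quantile normalization (0.054), after cyclic loess (0.088), with no filter on dim genes (0.13), without an intensity trend (0.32) and with every probe set as a feature (0.091).

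IFITM2 and IFITM3, close relatives that act in endosomes, flank IFITM1 on chromosome 11 and were read by probe sets of the _x_at kind, which can bind related transcripts. The probe set of IFITM1 is of the _s_at kind, which can also be shared, so the split of signal among the 3 genes is uncertain. IFITM2 had 15346 and 16492 in ING3 cells, against 15042 and 14902 in control cells (log2 difference 0.088, SE 0.057). IFITM3 had 16788 and 17227, against 17438 and 15906 (0.030, SE 0.060), and overlapped. Its sign turned under quantile normalization (-0.031) and cyclic loess (-0.050). BST2 (tetherin), which holds budding virions at the cell surface, had 277 and 281 in ING3 cells, against 219 and 165 in control cells (log2 difference 0.55, SE 0.20, adjusted p = 0.21). The ING3 duplicates of BST2 agreed closely and the control duplicates did not.

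Of the 10 members that sense or act on RNA, 0 were called by limma and 1, OASL, had an unadjusted p under 0.05. OASL, an inactive relative of the oligoadenylate synthetases that aids RIG-I, had 455 and 513 in ING3 cells, against 325 and 391 in control cells (log2 difference 0.44, SE 0.15, adjusted p = 0.18). OAS1, which makes the second messenger that activates RNase L, had 207 and 194 in ING3 cells, against 167 and 140 in control cells (log2 difference 0.39, SE 0.22, adjusted p = 0.39). For both genes the groups did not overlap. The other synthetases, which lie next to OAS1 on chromosome 12, overlapped: OAS2 had 89.7 and 63.7 in ING3 cells, against 51.4 and 68.3 in control cells, and OAS3 had 221 and 243, against 234 and 253. The log2 difference was 0.35 (SE 0.40) for OAS2 and -0.069 (SE 0.18) for OAS3.

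IFIH1 (MDA5), a sensor of long double-stranded RNA, had 296 and 222 in ING3 cells, against 245 and 251 in control cells. DDX60, a helicase linked to RIG-I signalling, had 375 and 399, against 383 and 369. The ING3 arrays bracketed the control arrays for IFIH1, and the arrays of DDX60 overlapped. EIF2AK2 (PKR), which stops translation on double-stranded RNA, had 4151 and 4426 in ING3 cells, against 4386 and 4456 in control cells (log2 difference -0.045, SE 0.063). ADAR, the enzyme that edits adenosine to inosine in such RNA, had 3930 and 4166, against 4013 and 4046 (0.0059, SE 0.063). EIF2AK2 and ADAR were among the members with the smallest standard errors. The other EIF2AK2 probe sets past the filter had log2 differences of -0.044 and -0.37. The latter was dimmer and did not overlap, with 101 and 97.8 in ING3 cells, against 120 and 139 in control cells. ISG20, an exonuclease, had 813 and 965 in ING3 cells, against 822 and 769 in control cells (0.16, SE 0.11), and SAMD9, a translation inhibitor that restricts poxviruses, had 72.1 and 88.7, against 70.2 and 71.7 (0.17, SE 0.35). SAMD9 did not overlap by a margin of less than 1 signal unit.

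The IFIT proteins bind viral RNA or hold back its translation, and their genes lie together on chromosome 10. None of the 4 was called by limma, and IFIT1 alone had an unadjusted p under 0.05. IFIT1, which recognises messenger RNA lacking cap methylation, had 936 and 992 in ING3 cells, against 796 and 764 in control cells (log2 difference 0.30, SE 0.096, adjusted p = 0.15). IFIT2, in the same cluster, had 1482 and 1321 in ING3 cells, against 1498 and 1666 in control cells (-0.18, SE 0.093, adjusted p = 0.36). The 2 genes thus stood apart in opposite directions, neither past the test. IFIT3, a partner that stabilises IFIT1, had 1343 and 1557, against 1404 and 1307 (0.094, SE 0.095), and IFIT5 had 1486 and 1544, against 1589 and 1517 (-0.036, SE 0.078). On these probe sets both overlapped between the groups. A second IFIT5 probe set past the filter had 768 and 788 in ING3 cells, against 848.5 and 946 in control cells (-0.20), without overlap.

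Members of the GTPase, TRIM and ADP-ribosyltransferase groups had lower means in ING3 cells, 6 of 6 tested, and 0 of them were called by limma (1, GBP1, at an unadjusted p under 0.05). These groups, with 2 tested members each, are described together as the ones in which every tested member was lower. The count therefore follows from that choice. Among all tested genes 48.3% had a higher mean in ING3 cells. GBP1, a guanylate-binding GTPase that is strongly induced by type II interferon and coats intracellular bacteria, had signals of 306 and 319 in ING3 cells, against 419 and 479 in control cells. Both ING3 arrays were below both control arrays, and the mean was 1.43-fold lower (log2 difference -0.52, SE 0.15, adjusted p = 0.12 by limma). MX1, a dynamin-like GTPase that blocks influenza virus, had 76.8 and 66.2, against 100.3 and 86.3 (-0.38, SE 0.34). TRIM22, a restriction factor of HIV, had 83.1 and 55.9 in ING3 cells, against 115 and 85.2 in control cells (-0.53, SE 0.37). Both are dim, with standard errors near the size of their differences. TRIM21, a cytosolic antibody receptor, had 384 and 394, against 467 and 396 (-0.14, SE 0.14).

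PARP9, which acts in a complex with DTX3L, had 467 and 496 in ING3 cells, against 659 and 535 in control cells (log2 difference -0.30, SE 0.14, adjusted p = 0.29). Without control array a the difference was -0.15. PARP14, a mono-ADP-ribosyltransferase close by on chromosome 3, had 196 and 260, against 243 and 257 (-0.15, SE 0.20), and overlapped.

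Of the transcription factors, 0 of 3 tested were called (0 at an unadjusted p under 0.05). IRF9, the DNA-binding subunit of ISGF3, had 696 and 678 in ING3 cells, against 729.9 and 721 in control cells (log2 difference -0.079, SE 0.10). IRF1, an early-induced interferon target, had 850.3 and 861 in ING3 cells, against 805 and 689 in control cells (0.20, SE 0.11). The IRF1 duplicates in control cells lay further apart than the nearest arrays of the 2 groups. SP110, a nuclear body protein, had 824 and 948, against 1016 and 923 (-0.13, SE 0.11). Among the remaining members IFI35 had 328 and 325 in ING3 cells, against 369 and 364 in control cells (-0.17, SE 0.14), and IFI6, a mitochondrial and endoplasmic reticulum protein, had 471 and 500.3, against 486 and 468 (0.024, SE 0.12).

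Other probe sets of the same genes gave a second reading of the same RNA, not further replicates. The 39 members had 68 single-symbol probe sets, 50 of them past the filter, and 11 members had several past it. All of a gene's probe sets went the same way for 9 of the 11. The 3 probe sets of GBP1 had log2 differences of -0.52, -0.63 and -0.66, the 2 of PARP9 had -0.30 and -0.39, and the 5 of SP110 lay between -0.35 and -0.058. The second probe set of OAS1 had 0.64, against 0.39 for the brightest, and that of OASL had 0.50, against 0.44. The exceptions were IRF1, at 0.20 and -0.29, and IFIT3, at 0.094 and -0.056. HERC5, HERC6, IFITM1, ISG15, BST2 and IFIT1 had a single probe set past the filter, so their values rest on 1 reading each.

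**Figure D4:**
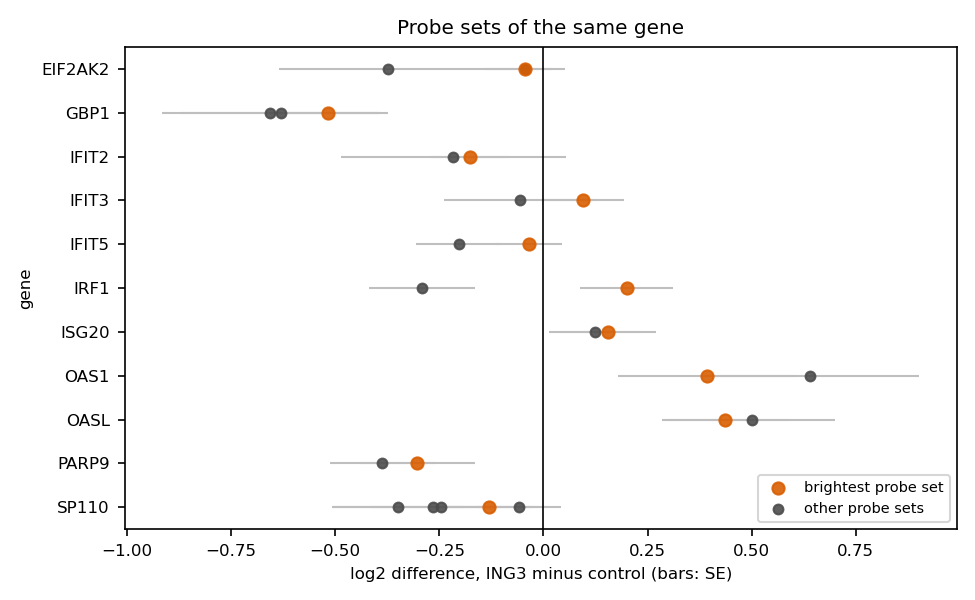
Log2 difference, ING3 minus control, for each probe set past the filter of the 11 members with several, with SE as bars; orange marks the brightest and grey the others. GBP1, PARP9, OAS1 and OASL keep 1 side of 0, and IRF1 and IFIT3 have probe sets on both.

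Members with and without the ISRE core in their windows were found in both directions. Only the exact core was searched, so similar sequences were not counted. Of the 20 tested members whose windows held the ISRE core, the mean was higher in ING3 cells for 12 and lower for 8, with log2 differences from -0.52 (GBP1) to 0.82 (HERC5) and a median of 0.036. Of the 8 tested members whose windows held none, 4 were higher and 4 lower, with a median of -0.036 and HERC6 highest at 0.57. Both called members belong to the first group. No test was made of this comparison.

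Upstream of the members, 0 of 9 measured interferon ligand genes reached the filter. IFNB1 had signals of 7.72 and 3.08 in ING3 cells, against 3.60 and 4.66 in control cells. Over the 9 genes the signals lay between 0.889 and 100.6. Of the 6 receptor genes, all past the filter, 0 rose and 1 fell, where 1.5% of all tested genes were called. An unadjusted p under 0.05 by limma was reached by 4, against 17.7% of all tested genes. These were IFNAR1 and IL10RB, which were lower in ING3 cells, and IFNGR1 and IFNGR2, which were higher. IFNAR1, a chain of the type I receptor, had 552 and 585 in ING3 cells, against 836 and 801 in control cells, and fell by 0.52 on the log2 scale (SE 0.11, adjusted p = 0.049 by limma). Both ING3 arrays were below both control arrays.

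The size of the IFNAR1 difference depended on the probe set. The other 3 past the filter had log2 differences of -0.32, -0.11 and 0.38, and the mean over all 4 was -0.15 (adjusted p = 0.55). Leaving out any 1 array ended the call (adjusted p of 0.085 and 0.070 without ING3 arrays a and b, 0.28 and 0.26 without control arrays a and b). It was also lost after quantile normalization (0.077), after cyclic loess (0.076), with no filter on dim genes (0.098), without an intensity trend (0.24) and with every probe set as a feature (0.091), and was kept in 4 of 14 alternatives. IFNAR2, its partner, had 738 and 759 in ING3 cells, against 931 and 735 in control cells, and overlapped. The type II receptor chains IFNGR1 and IFNGR2 had log2 differences of 0.25 (SE 0.069, adjusted p = 0.11) and 0.21 (SE 0.061, adjusted p = 0.13). IL10RB, a chain of the type III receptor, had -0.28 (SE 0.11).

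Of the kinases and the measured STAT, 0 of 4 were called by limma and 0 had an unadjusted p under 0.05. The log2 difference was 0.090 for JAK1, -0.27 (SE 0.21) for JAK2, -0.0097 for TYK2 and 0.11 for STAT3. TYK2 overlapped between the groups, while JAK1, JAK2 and STAT3 did not. Over all tested genes the groups did not overlap for 49.2%. Of 12 tested sensors and adaptors 0 were called (1 at an unadjusted p under 0.05). IFI16, a nuclear DNA sensor, had 6076 and 6089 in ING3 cells, against 7094 and 7234 in control cells (-0.24, SE 0.056, adjusted p = 0.076), without overlap. RIGI, the RNA sensor, had 664 and 602, against 607 and 538 (0.15, SE 0.12).

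Of 9 negative regulators 0 were called (3 at an unadjusted p under 0.05), a list that shares ISG15 and USP18 with the members. The IRF family outside the members had 0 of 4 tested genes called (1 at an unadjusted p under 0.05). Of 40 further interferon-stimulated genes that were tested, 0 were called (10 at an unadjusted p under 0.05). Beside these 3 lists, 17.7% of all tested genes had an unadjusted p under 0.05 by limma. Of the 40 genes 20 had a higher mean in ING3 cells and 20 a lower one, and the median log2 difference was 0.0041. Their log2 differences reached from -0.66 to 0.87. RIGI, IFI16 and TRIM25 are counted both in this list and among the sensors and adaptors. IRF3 is counted both among the sensors and adaptors and in the IRF family, so the lists are not separate.

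**Figure D5:**
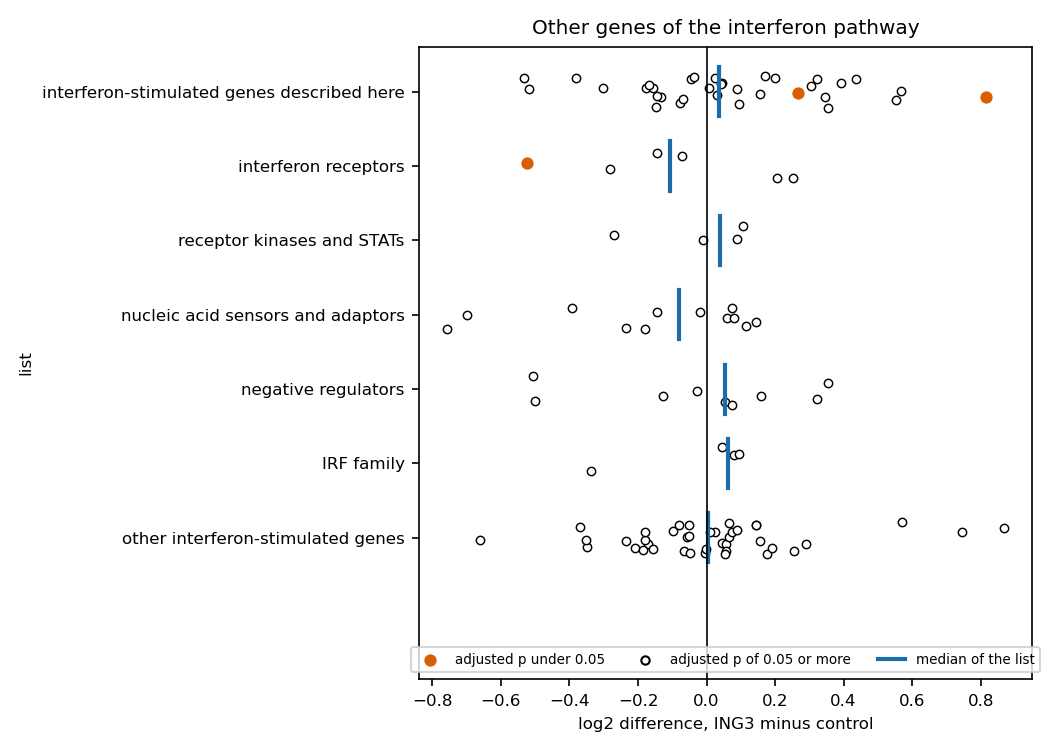
Log2 difference, ING3 minus control, of every tested gene in the members and in 6 other lists of the interferon pathway; each point is a gene, filled where it passed the test, and a blue bar marks the list's median. IFNAR1 at -0.52 is the filled point among the receptors, and the medians lie between -0.11 and 0.062.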

How the data were processed

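The deposited table held linear signal intensity for 54675 probe sets on 4 arrays, made by the authors with MAS5 in Affymetrix Expression Console, per the submitters' processing notes. No software version was stated there. The mean without the lowest and highest 2% was 500.1 on every array. MAS5 subtracts mismatch signals, so dim probe sets vary widely. Arrays have no read depth, and their number limits the precision. Control probe sets (62) were left out. The platform annotation gave 1 symbol for 41097 probe sets, several for 1801 and none for 11777. A lookup of each symbol through its gene ID used RefSeq (GRCh38.p14), which changed 0.

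Genes were represented by their brightest probe set, by mean log2(signal + 1), and the 12190 genes whose mean reached the median of all probe sets were tested with limma 3.58.1 in R 4.3.3 (lmFit, eBayes with an intensity trend, no covariates, two-sided, Benjamini-Hochberg over all of them). Log2 differences are ING3 minus control, with moderated SE. The added 1 shrinks those of dim genes, but dim probe sets also vary widely, so their differences are not lower bounds. In a check on simulated data, false calls made up a larger share of the calls than the threshold allows, and many changes were missed. Members, lists and tests were chosen with earlier results of these data known. Any member could be named; of the other lists, called genes and receptors, kinases, STATs and sensors. IFNB1, HBB, COL1A1, COL1A2, CDH5 and the line and leukocyte markers were added after their values were seen.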

Additional observations from a re-analysis of the deposited data

How the results depend on the processing

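The counts of calls, the median of the members, the 34 tested members and IFNAR1 were recomputed under up to 14 alternatives, of which the fit with every probe set as a feature was added after the data were seen. The other values were not recomputed, and members absent under an alternative have no value there. The number of genes called among all tested was 183. It was 54 with no filter on dim genes, 115 after quantile normalization, 101 with every probe set as a feature, and 2 to 305 when 1 array was left out. Without an intensity trend limma called 0 genes, with 1686 at an unadjusted p under 0.05. With the array letter as a replicate block 442 genes were called. The letters are not stated to pair the arrays, and the a-minus-b differences of the groups correlated at r = 0.029 across genes. The block changed no call among the members.

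Of the members 2 were called. The number was 0 with no filter, without a trend and with every probe set as a feature (9, 10 and 8 at an unadjusted p under 0.05), 1 after quantile normalization and 1 after cyclic loess, and 0 to 2 when 1 array was left out. The members' median log2 difference lay between -0.0067 and 0.060 when 1 array was left out, and was 0.071 after quantile normalization and 0.068 after cyclic loess. Of 468 member values under alternatives, 437 kept direction and side of the threshold, 14 (HERC5 and IFITM1) kept direction only, and 17 of 10 uncalled members changed sign. After quantile normalization and cyclic loess these were ADAR (-0.037 and -0.022), IFITM3 (-0.031 and -0.050) and OAS3 (0.048 and 0.043). IRF1 was at -0.045 as the mean of its probe sets. With 1 array left out, the values lay between -0.036 and 0.048 for ADAR, -0.0010 and 0.086 for DDX60, -0.091 and 0.0018 for EIF2AK2, -0.020 and 0.068 for IFI6, -0.16 and 0.25 for IFIH1, -0.012 and 0.20 for IFIT3, -0.036 and 0.096 for IFITM3, and -0.35 and 0.053 for PARP14. Others kept their sign over wide ranges, between -0.81 and -0.25 for TRIM22, -0.45 and -0.15 for PARP9, 0.16 and 0.49 for USP18, 0.032 and 0.28 for ISG20, and 0.35 and 0.76 for BST2. A lone array was assumed to vary like the other group. Dim members near the filter had the largest standard errors.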
